A study of Homo sapiens with 3 samples.

Results

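The kinesin motor family was examined in RNA sequencing of the human line MIAPaCa-2, which is established from a pancreatic cancer. Members were found by symbol, as KIF followed by a number and an optional letter A to C, or KIFC followed by a digit. This gave 33 of the 14949 listed genes, and 35 once KIF15 and KIF1B, whose symbols carried an appended gene identifier, were counted. The 3 libraries came from cells with a control short hairpin and no treatment (sh-CTL), from cells with a hairpin against METTL3 and no treatment (sh-METTL3), and from sh-CTL cells under 80 nM of NMS-P937, an inhibitor of PLK1, for 24 h (sh-CTL + PLK1i). All cells thus carried a hairpin, and whether a knockdown line was 1 clone is not given in the sources used here. METTL3 is the methyltransferase that writes N6-methyladenosine on messenger RNA. PLK1 is a kinase of mitosis. Each group held 1 library, so every difference below lies between 2 libraries, has no replicate check and no p-value, and variation between cultures was not measured.

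Kinesins are motor proteins that use ATP to move along microtubules or to take microtubules apart at their ends. One set builds the mitotic spindle, moves chromosomes and splits the cell at cytokinesis, and the transcripts of this set are known to peak in G2 and mitosis. Another set carries vesicles, mitochondria and other cargo in interphase. The family was therefore split by known role into 13 mitotic kinesins, 13 transport kinesins and 9 others. Most of the others act in cilia, centrioles, Hedgehog signalling or the control of microtubule growth. KIF2B of the mitotic list, KIF5A and KIF5C of the transport list, and KIF6, KIF12, KIF19 and KIF25 of the other list were not among the listed genes. The lowest listed gene had 0.503 RPM (the reads of a gene scaled to library depth) in its highest library, and these 7 kinesins have no value here. CENPE and STARD9, kinesins by protein, do not carry a KIF symbol and were not counted as members.

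Summed reads of the listed genes came to 37449337, 46944891 and 47727490 in the order sh-CTL, sh-METTL3, sh-CTL + PLK1i, which is the order of all triples of values here. METTL3 itself had 3378, 1781 and 4223 reads, lowest where its hairpin was expressed. PLK1 had 6910, 5638 and 9249 reads, which after normalization was a change of -0.62 (95% counting interval -0.68 to -0.57) in sh-METTL3 and of 0.08 (0.03 to 0.12) after the inhibitor, on the log2 scale. Of 5 epithelial markers, KRT8, KRT18 and KRT19 were abundant, with 3361 to 124197 reads, and EPCAM and CDH1 were not among the listed genes. Of 10 markers of other pancreatic, stromal and immune cells, only COL1A1 was listed, with 34, 6 and 36 reads. Its part in the results was not tested.

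Promoters are given because many mitotic kinesins are known to be transcribed under shared cell cycle control. In cell cycle promoters the CHR element, spelled TTTGAA or TTCGAA, is bound by MuvB complexes, and the CCAAT box is bound by NF-Y. RefSeq promoters (GRCh38.p14) were matched for 29 of the 35 members, and KIFC2, KIFC3, KIF13B, KIF21B, KIF26B and KIF27 had no match. Both spellings of CHR and the letters CCAAT were searched on both strands in the 250 bases before each annotated start. A gene with several promoters counted once if any of them held the letters. CCAAT was found in 11 of 13 mitotic kinesins (84.6%), in 3 of 10 transport kinesins and in 1 of 6 others, against 37.0% of all 27305 genes with a promoter and 41.5% of the listed ones. CHR letters were found in 6 of 13 mitotic kinesins (46.2%), in 1 of 10 transport kinesins and in 0 of 6 others, against 17.2% of all genes and 13.2% of the listed ones. Both were found in 5 mitotic kinesins (38.5%), against 7.38% of all genes. These matches are a description of letters, not of bound sites.

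The 100 bases before the start are shown for 5 mitotic kinesins, 4 with both motifs and KIF20A with 2 CCAAT boxes, and for 3 transport kinesins that are the most abundant (KIF5B and KIF1C) or were furthest below sh-CTL in sh-METTL3 among members averaging 500 or more normalized counts (KIF16B). KIF22, the remaining mitotic kinesin with both motifs, has 2 annotated starts and is not shown. KIF5B also held both, with its CHR letters 140 bases before the start, outside the printed stretch. Capitals mark CHR or CCAAT letters on either strand, and each run reads 5′ to 3′ along the gene.
KIF11 (chr10:92593030-92593129, plus strand): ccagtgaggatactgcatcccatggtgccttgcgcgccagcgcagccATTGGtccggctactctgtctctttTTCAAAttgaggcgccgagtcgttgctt
KIF4A (chrX:70290004-70290103, plus strand): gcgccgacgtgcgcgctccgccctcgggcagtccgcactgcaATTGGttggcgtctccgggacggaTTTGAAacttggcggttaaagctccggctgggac
KIF18A (chr11:28108157-28108256, minus strand): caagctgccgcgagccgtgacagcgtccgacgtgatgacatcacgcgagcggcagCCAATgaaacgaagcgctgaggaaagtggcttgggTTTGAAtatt
KIF23 (chr15:69414249-69414348, plus strand): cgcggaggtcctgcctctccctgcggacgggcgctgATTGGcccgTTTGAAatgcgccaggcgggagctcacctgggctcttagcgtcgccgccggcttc
KIF20A (chr5:138179012-138179111, plus strand): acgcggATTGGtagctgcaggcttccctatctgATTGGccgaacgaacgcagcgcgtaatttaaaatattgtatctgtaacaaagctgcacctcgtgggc
KIF5B (chr10:32056426-32056525, minus strand): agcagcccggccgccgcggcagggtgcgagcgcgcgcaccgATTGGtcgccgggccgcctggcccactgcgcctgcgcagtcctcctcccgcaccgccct
KIF1C (chr17:4997850-4997949, plus strand): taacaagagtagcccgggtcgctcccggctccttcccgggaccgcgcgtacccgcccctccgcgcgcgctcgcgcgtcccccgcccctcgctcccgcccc
KIF16B (chr20:16573449-16573548, minus strand): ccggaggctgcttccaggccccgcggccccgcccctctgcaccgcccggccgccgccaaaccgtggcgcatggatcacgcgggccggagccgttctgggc

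Levels were compared between genes in RPKM, which divides RPM by the annotated exon length in kb. In sh-CTL the mitotic kinesins had a median of 24.5 RPKM, the transport kinesins 3.74 and the others 1.34. The order of the classes was the same in sh-METTL3 (26.9, 3.46 and 1.58) and in sh-CTL + PLK1i (26.3, 3.71 and 1.29). The ranges overlapped, since the most abundant kinesin was a transport motor. KIF5B, the ubiquitous heavy chain of kinesin-1, had 65.3, 66.3 and 75.7 RPKM. By mean level it was followed by the mitotic kinesins KIF20A, KIF2C, KIFC1, KIF11 and KIF4A. KIF15, the spindle motor that can stand in for KIF11, was the lowest mitotic kinesin with more than a trace of reads, at 7.64, 9.39 and 7.54 RPKM.

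**Figure D1:**
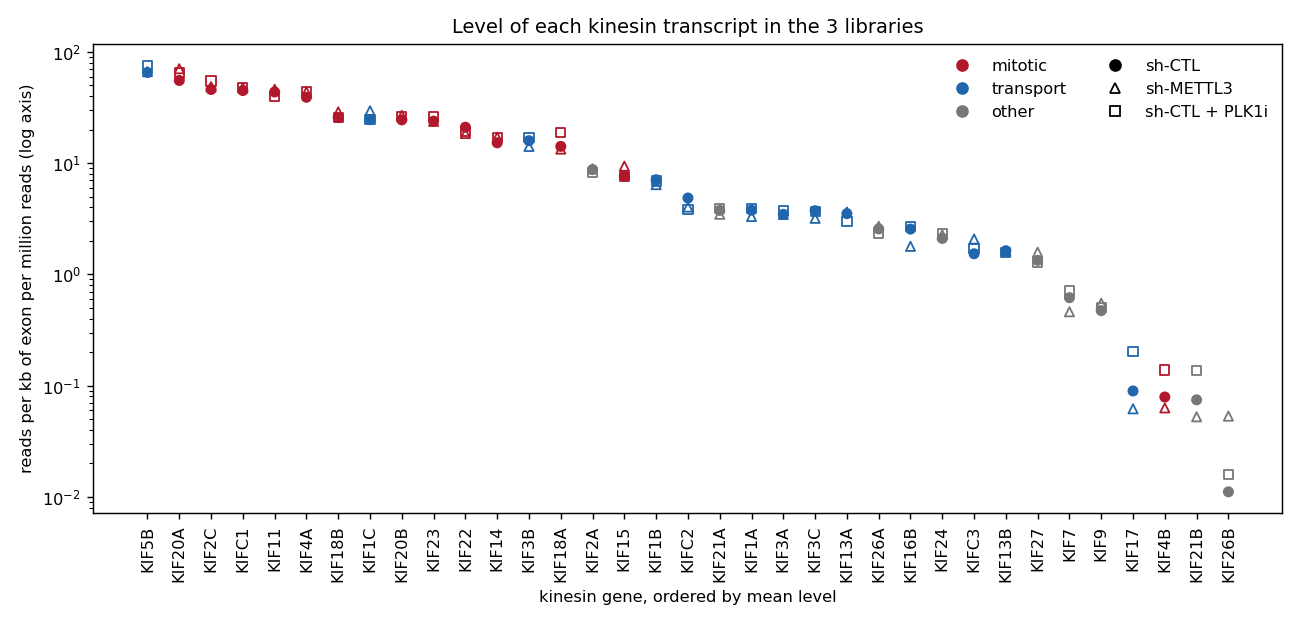
Level of each of the 35 kinesin transcripts in the 3 libraries, in RPKM on a log axis, with genes ordered by mean level and coloured by class. KIF5B stands highest, 12 of the 13 mitotic kinesins lie among the 16 highest genes, and KIF17, KIF4B, KIF21B and KIF26B lie far below the rest.

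At the other end, KIF4B, KIF17, KIF21B and KIF26B had 6 to 80 reads in any library. KIF26B exceeded 0.503 RPM only in sh-METTL3, and KIF4B and KIF17 only in sh-CTL + PLK1i. Each of these may thus be listed only because it was high in that library. KIF4B is a near-identical retrocopy of KIF4A, so its 13, 13 and 29 reads may belong to KIF4A. KIF7, a regulator of Hedgehog signalling in the cilium, had 126, 118 and 184 reads, and its span overlaps TICRR on the opposite strand. KIF20A overlaps CDC23 and BRD8 on the opposite strand, and KIF15 overlaps TMEM42 on its own strand. The kit keeps strand, but how strand was treated in counting is not given in the sources used here, so part of these reads could come from the overlapping genes.

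The first comparison, of the METTL3 hairpin with the control hairpin, asked which kinesin transcripts differ when METTL3 is reduced. Most mitotic kinesins were slightly higher in sh-METTL3, and transport kinesins were more often lower than higher. A member was called higher or lower when the 95% counting interval of its read ratio, an exact Clopper-Pearson interval scaled by the size factors, excluded no change. The interval is narrow for genes with many reads and covers counting error only. In sh-METTL3, 9 of the 13 mitotic kinesins were higher and 2 were lower, while 2 of the 13 transport kinesins were higher and 6 were lower. Of all listed genes, 27.1% were higher and 28.2% were lower by the same rule. Among genes averaging at least 500 normalized counts (deep genes), 29.9% were higher and 35.4% lower, and of the 12 mitotic kinesins at that depth 9 were higher and 2 lower. The median log2 change was 0.08 for mitotic kinesins, -0.15 for transport kinesins, 0.07 for the others and 0.00 for all genes. The medians of the mitotic and the other kinesins were thus close. Among deep genes they were 0.10 (12 mitotic kinesins) and 0.04 (4 others). Without KIF17, the transport kinesin with few reads, the transport median was -0.09, and with KIF15 and KIF1B left out it was -0.10. In RNA of a whole culture, more cells of a type (such as cells in mitosis) and more RNA per cell cannot be told apart.

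Highest against sh-CTL among mitotic kinesins in sh-METTL3 was KIF20A (ENSG00000112984, GRCh37 chromosome 5, 137514408 to 137523412), the motor that brings the chromosomal passenger complex to the central spindle. Its normalized counts were 9307, 11821 and 10907. Both other libraries were thus above sh-CTL. The log2 change in sh-METTL3 was 0.34 (95% counting interval 0.30 to 0.39), or 1.27-fold, and 6.08% of deep genes changed by more in that direction. KIF15 (GRCh37 chromosome 3, 44803213 to 44914868) had normalized counts of 1761, 2158 and 1749, so it was higher only in sh-METTL3, by 0.29 (0.20 to 0.39).

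Other mitotic kinesins had smaller differences in sh-METTL3. KIF18B, a plus-end motor that shortens astral microtubules, changed by 0.17 (0.11 to 0.22). KIF14, a motor of cytokinesis, changed by 0.16 (0.10 to 0.22), and KIF4A, the chromokinesin that works with PRC1 at the midzone, by 0.16 (0.11 to 0.20). These 3 values lay within each other's intervals. KIF20B, another cytokinesis kinesin, changed by 0.13 (0.08 to 0.18). KIF2C, which takes microtubules apart at centromeres, KIF11, which pushes the spindle poles apart, and KIFC1, a minus-end motor that focuses the poles, changed by 0.07 to 0.08. Changes of that size are common: 31.8% of deep genes changed upward by more than KIF11 did.

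3 mitotic kinesins with ample reads went the other way or stayed level. KIF22, a chromokinesin, had normalized counts of 6583, 5757 and 6047, a change of -0.19 (-0.25 to -0.14) in sh-METTL3. KIF18A, which dampens chromosome movements at the metaphase plate, changed by -0.09 (-0.16 to -0.01). KIF23, the motor of centralspindlin, changed by -0.01 (-0.06 to 0.04), within counting error. KIF4B, with few reads, changed by -0.31 (-1.56 to 0.90).

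The transport kinesins spread more widely in sh-METTL3. KIF16B (ENSG00000089177, GRCh37 chromosome 20, 16252749 to 16554093), a carrier of early endosomes, had normalized counts of 863, 602 and 912. It was low in sh-METTL3 alone, where it stood at 69.7% of the control, and the change was -0.52 (-0.67 to -0.37). KIFC3 (GRCh37 chromosome 16, 57792129 to 57896957), a minus-end motor linked to cell junctions and the Golgi, had normalized counts of 643, 869 and 726 and changed by 0.43 (0.28 to 0.59), the largest upward change among deep members. KIF1C, a fast long-range carrier, changed by 0.26 (0.22 to 0.30), with 9209, 11025 and 9303 normalized counts. Also lower were KIFC2 (-0.27), KIF3C (-0.23), KIF1A (-0.19), KIF3B (-0.18) and KIF1B (-0.15), each beyond counting error. KIF5B changed by 0.02 (-0.01 to 0.05), KIF3A by -0.01, KIF13A by 0.04 and KIF13B by -0.02, all within counting error.

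Only KIF26B moved by at least 2-fold in sh-METTL3, as 1 of 35 members higher and 0 lower, against 3.42% of all genes at least 2-fold higher and 2.94% at least 2-fold lower. KIF26B, a kinesin thought to lack motor activity and tied to cell adhesion and Wnt signalling, had 6, 36 and 11 reads. Its log2 change was 2.10 with a wide interval of 0.99 to 3.79, and its level stayed under 0.06 RPKM even in sh-METTL3. KIF26B may be listed only because it was high in sh-METTL3, so this rise is not independent of the listing. Among the other kinesins KIF27 changed by 0.24 (0.05 to 0.43), KIF21A by -0.12 (-0.22 to -0.02) and KIF7 by -0.42 (-0.80 to -0.05). KIF2A, a microtubule depolymerase of interphase and spindle, KIF24, KIF26A, KIF9 and KIF21B stayed within counting error.

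**Figure D2:**
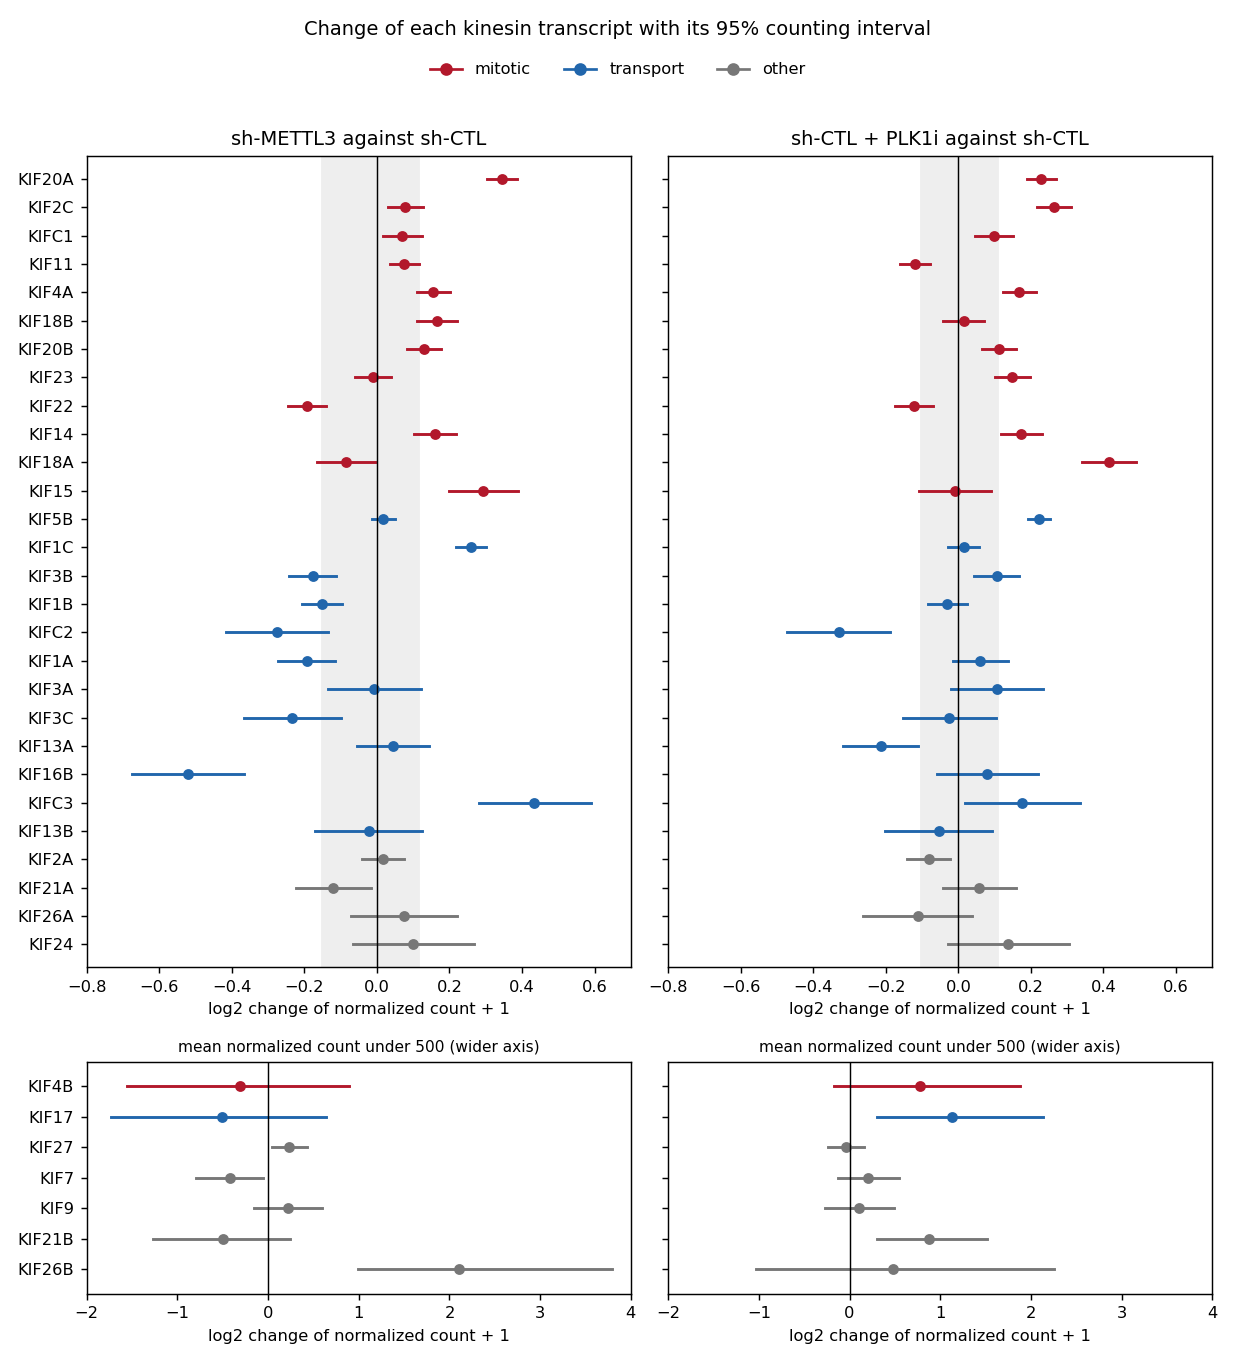
Log2 change of each kinesin transcript in sh-METTL3 (left) and sh-CTL + PLK1i (right) against sh-CTL, with points for the value, lines for the 95% counting interval, colours for the class, and a grey band for the middle 50% of genes averaging 500 or more normalized counts. The upper panels hold the 28 members at that depth, and the lower panels, on a wider axis, hold the 7 with fewer reads. Both comparisons use the same sh-CTL library.

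The genomic neighbours of each kinesin were followed as a local reference. For each member, the median change of the 10 nearest listed genes on each side averaging 50 or more normalized counts was taken on GRCh37. KIF3B and KIF16B lie apart on chromosome 20, starting at 30865454 and 16252749, and their neighbours had medians of -0.19 and -0.17. The change of KIF3B, -0.18, equalled that of its neighbours to within 0.01, and KIF16B was lower than its neighbours by 0.35 on the log2 scale. KIF3C and KIF1A lie far apart on chromosome 2, starting at 26149467 and 241653178. They changed by -0.23 and -0.19, and their neighbours had medians of -0.12 and -0.09. KIF3A changed by -0.01, with its neighbours at -0.12. KIF1B changed by -0.15, with its neighbours at 0.03. The neighbours of KIF15 and KIF20B stood at 0.15 and 0.11, against 0.29 and 0.13 for the kinesins themselves. The neighbours of KIF20A stood at 0.08, those of KIF1C at 0.05, those of KIFC2 at 0.01 and those of KIFC3 at -0.01, much nearer to 0 than the kinesins. What part the neighbourhood has in any of these values was not tested.

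**Figure D3:**
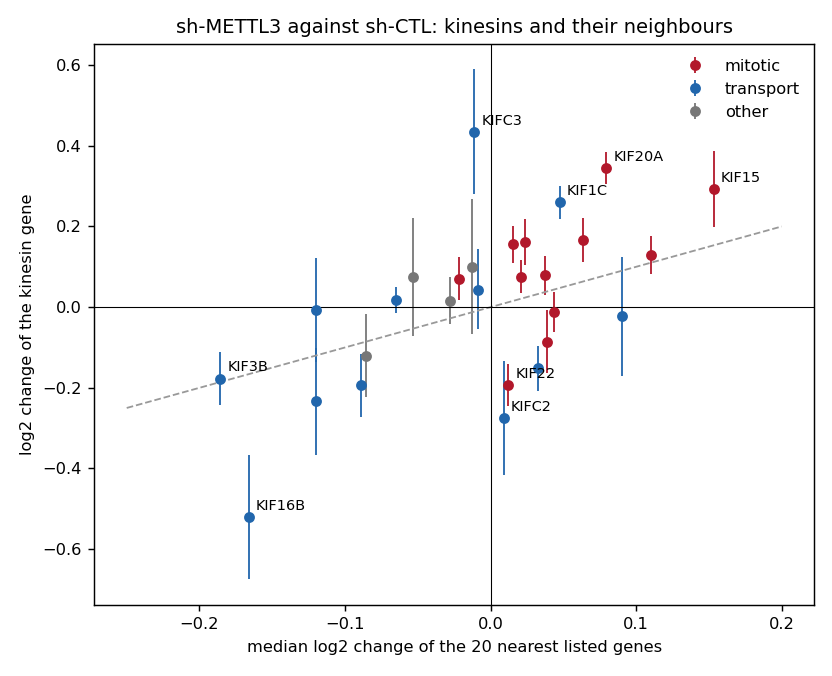
Log2 change in sh-METTL3 against sh-CTL for the 28 kinesins averaging 500 or more normalized counts (vertical axis, lines for the 95% counting interval) against the median change of their 20 nearest listed genes (horizontal axis). The dashed line marks equal values: KIF3B and KIF20B lie close to it, and KIF20A, KIFC3 and KIF16B lie far from it.

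The second comparison, of PLK1-inhibited with untreated control cells, asked which kinesin transcripts differ after 24 h of inhibitor. The mitotic kinesins were again mostly higher, but with other leading genes, and the transport kinesins did not lean down. In sh-CTL + PLK1i, 8 of 13 mitotic kinesins were higher and 2 lower beyond counting error, and 4 of 13 transport kinesins were higher and 2 lower. Over all genes, 23.1% were higher and 22.8% lower. Of deep genes, 29.9% were higher and 27.8% lower, and 8 of the 12 mitotic kinesins at that depth were higher and 2 lower. Of the 12 transport kinesins at that depth, 3 were higher and 2 lower. The median log2 change was 0.15 for mitotic kinesins, 0.06 for transport kinesins (0.04 without KIF17), 0.11 for the others and 0.00 for all genes. The 0.11 was the value of KIF9, which had 104 to 152 reads and stayed within counting error. The 4 others among deep genes had a median of -0.01, against 0.13 for the 12 mitotic kinesins at that depth.

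KIF18A (ENSG00000121621, GRCh37 chromosome 11, 28042166 to 28129703) had the largest upward change after the inhibitor among deep members. Its normalized counts were 2788, 2628 and 3718, so it was high in the treated library alone. The change of 0.42 (0.34 to 0.49) is 1.33-fold, and 1.49% of deep genes changed upward by more. KIF2C followed with 7307, 7715 and 8768 normalized counts, a change of 0.26 (0.22 to 0.31), and KIF20A with 0.23 (0.19 to 0.27).

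KIF14 and KIF4A each changed by 0.17 in sh-CTL + PLK1i, KIF23 by 0.15 (0.10 to 0.20), KIF20B by 0.11 and KIFC1 by 0.10, all beyond counting error. KIF11 and KIF22 were lower, each by -0.12, with intervals of -0.16 to -0.08 and -0.17 to -0.07. KIF11 thus had normalized counts of 10123, 10669.5 and 9321, so sh-CTL lay below sh-METTL3 and above sh-CTL + PLK1i. KIF18B (0.01) and KIF15 (-0.01), both higher in sh-METTL3, were within counting error of sh-CTL after the inhibitor.

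Among transport kinesins KIF5B was higher after the inhibitor, with 16726, 16930 and 19504 normalized counts and a change of 0.22 (0.19 to 0.25). KIFC3 changed by 0.18 (0.02 to 0.34) and KIF3B by 0.11 (0.04 to 0.17). KIFC2 and KIF13A were lower, by -0.33 (-0.47 to -0.19) and -0.21 (-0.32 to -0.11). KIF17, a kinesin-2 of cilia and dendrites, had 15, 13 and 43 reads and a change of 1.13 (0.30 to 2.13). It was the 1 member of 35 at least 2-fold higher, against 1.39% of all genes, and 0 were at least 2-fold lower, against 1.13%. KIF17 may be listed only because it was high in sh-CTL + PLK1i, so this rise is not independent of the listing. KIF21B, a regulator of microtubule growth, had 34, 30 and 80 reads, a change of 0.88 (0.30 to 1.52), and KIF2A changed by -0.08 (-0.14 to -0.02). KIF1A, KIF1B, KIF1C, KIF3A, KIF3C, KIF13B and KIF16B stayed within counting error.

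Summed over each class, mitotic kinesins took 1739 RPM in the control (exact 95% interval 1726 to 1752), 1881 under the METTL3 hairpin (1869 to 1894) and 1866 after the inhibitor (1854 to 1879). The intervals of the 2 later values overlapped each other and not sh-CTL. Transport kinesins took 1054, 1064 and 1115 RPM, where the interval of sh-METTL3 (1054 to 1073) overlapped that of sh-CTL (1044 to 1065) and that of sh-CTL + PLK1i (1106 to 1125) lay above both. The sum for transport kinesins rests on KIF5B and KIF1C, the transport kinesins with most reads, and so differs from the median of their changes. The mitotic sum is not an even rise across its class either. KIF20A alone gave 7981, 12753 and 11848 of its 65128, 88318 and 89070 reads, some of which could come from the overlapping genes. Mitotic kinesins made up 58.1%, 59.7% and 58.7% of all kinesin reads in the 3 libraries.

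**Figure D4:**
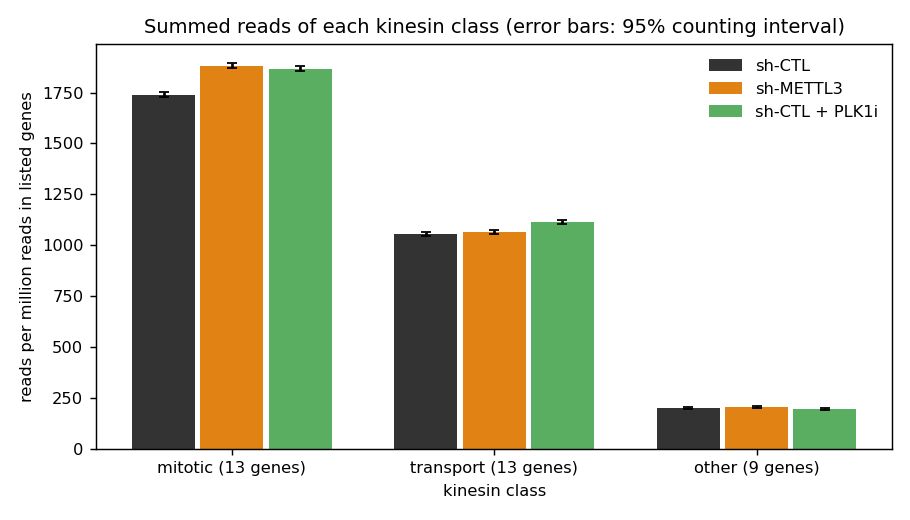
Reads, in RPM, of the mitotic, transport and other kinesins, one bar per library, with error bars for the exact 95% counting interval. The mitotic sum is 1739, 1881 and 1866, and the transport sum is 1054, 1064 and 1115.

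Both comparisons share sh-CTL, so the values of a member stand side by side without a measure of likeness. KIF11 changed by 0.08 under the METTL3 hairpin and by -0.12 after the inhibitor, KIF18A by -0.09 and 0.42, and KIF3B by -0.18 and 0.11. Within the mitotic class, the 6 genes with CHR letters had median changes of 0.03 (METTL3 hairpin) and 0.07 (inhibitor), and the 7 without had 0.13 and 0.17. Both sets held members with large changes, among them KIF15 and KIF18A with the letters and KIF20A without.

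The direct comparison of sh-METTL3 with sh-CTL + PLK1i uses no control. Of all genes, 32.0% were higher in sh-METTL3 and 32.5% lower. Of the 13 mitotic kinesins, 4 were higher (KIF15 by 0.30, KIF11 by 0.19, KIF18B by 0.15 and KIF20A by 0.12) and 5 were lower (KIF18A, KIF2C, KIF23, KIF22 and KIF4B). KIF4B had only 13 and 29 reads here. Of the 12 mitotic kinesins among deep genes, 4 were higher and 4 lower, against 34.5% and 40.2% of all deep genes. KIF18A differed most among those with ample reads, at -0.50 (-0.57 to -0.43). KIFC1, KIF4A, KIF20B and KIF14 did not differ beyond counting error. Of the 13 transport kinesins, 3 were higher (KIF13A, KIFC3 and KIF1C, by 0.25 to 0.26) and 7 were lower, among them KIF16B at -0.60 (-0.75 to -0.46), KIF3B at -0.28 and KIF5B at -0.20.

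Partner genes of the motors were followed in 3 lists set by known function. Of 18 spindle and midzone partners, 7 were higher and 7 lower in sh-METTL3, with a median of -0.03, and 8 were higher and 7 lower in sh-CTL + PLK1i, with a median of 0.00. Over all genes the shares were 27.1% higher and 28.2% lower in sh-METTL3, and 23.1% and 22.8% in sh-CTL + PLK1i. Of deep genes, 29.9% were higher and 35.4% lower in sh-METTL3, and 29.9% and 27.8% in sh-CTL + PLK1i. The list's own shares were 38.9% each way in sh-METTL3, and 44.4% and 38.9% in sh-CTL + PLK1i. All of its genes averaged over 500 normalized counts, and its share of lower genes in sh-METTL3 was near that of deep genes. In sh-METTL3 HMMR (0.22) and NUSAP1 (0.16) were highest against sh-CTL, and NUMA1 (-0.24) and ECT2 (-0.13) lowest. In sh-CTL + PLK1i KNSTRN (0.41) and AURKA (0.36), a kinase of the spindle poles, were highest, and lowest were INCENP (-0.34), a chromosomal passenger subunit, and NUSAP1 (-0.29). CENPE, the kinetochore kinesin, changed by 0.10 in both. RACGAP1, which forms centralspindlin with KIF23, changed by -0.04 (-0.09 to 0.01) under the METTL3 hairpin and by 0.21 (0.16 to 0.26) after the inhibitor. Both subunits were thus within counting error in sh-METTL3 and higher after the inhibitor.

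Of 15 listed light chains and cargo adaptors, 4 were higher and 4 lower in sh-METTL3, and 8 were higher and 5 lower in sh-CTL + PLK1i. The share in sh-METTL3, 26.7% each way, was near that of all genes (27.1% and 28.2%). After the inhibitor it was 53.3% and 33.3%, against 23.1% and 22.8% of all genes and 29.9% and 27.8% of deep genes. MAPK8IP1 and MAPK8IP2, both among the higher, averaged 455 and 209 normalized counts, below that depth. KLC4 and FEZ1, also below it, were within counting error after the inhibitor. KIFAP3, the third subunit of the kinesin-2 motor made with KIF3A and KIF3B, had 408, 771 and 380 reads. It was high in sh-METTL3 by 0.59 (0.41 to 0.76) and low in sh-CTL + PLK1i by -0.44 (-0.65 to -0.24), in each case opposite to KIF3B. The kinesin-1 light chain KLC2 changed by -0.37 (-0.46 to -0.29) in sh-METTL3, where its heavy chain KIF5B stayed level, and by 0.17 (0.09 to 0.25) in sh-CTL + PLK1i. PLEKHM2, a lysosome adaptor, changed by -0.19 in sh-METTL3, and FEZ1, with 30, 85 and 48 reads, changed by 1.15 (0.56 to 1.82). In sh-CTL + PLK1i the scaffold genes MAPK8IP1 (0.45) and MAPK8IP2 (0.39) were highest, and BORCS5 changed by -0.34.

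Of 20 listed genes of dynein and dynactin, the motor complex that runs toward the minus end, 4 were higher and 7 lower in sh-METTL3 (median -0.02), and 8 were higher and 5 lower in sh-CTL + PLK1i (median 0.02). Of deep genes, 29.9% were higher and 35.4% lower in sh-METTL3, and 29.9% and 27.8% in sh-CTL + PLK1i, against 20% and 35%, and 40% and 25%, of this list. In sh-METTL3 the adaptor BICD2 changed by 0.36 and the dynactin filament subunit ACTR1A by 0.29, and DCTN1 and DYNLRB1 by -0.18 each. In sh-CTL + PLK1i DYNLL2 changed by 0.20 and NDEL1 by 0.19, and DCTN6 and the heavy chain DYNC1H1 by -0.16 each. None of these 20 genes moved by 2-fold in either comparison.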

How the data were processed

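Total RNA of 3 MIAPaCa-2 libraries was sequenced after polyadenylated RNA selection with a stranded kit. The submitters' processing notes name FastQC 0.11.9, STAR 2.7.10, RSEM 1.3.3 and hg19, with no role or order. The authors deposited log2 expression values, with an exact minimum of 2. Their low values matched log2 of a scaled read count plus 4. Whole reads were recovered after undoing the log2 and subtracting 4, with 1 read worth 1.17, 0.927 and 0.921 in sh-CTL, sh-METTL3 and sh-CTL + PLK1i. The check covered 10708, 9950 and 9848 genes with fewer than 2000 reads, and 100% came out whole to a tolerance of 0.1. Whether these whole values are counted reads or rounded estimates is not given in the sources used here. The counting intervals treat them as counted. Normalized counts are reads divided by the size factors these steps give (0.858, 1.08 and 1.09). Changes are differences of log2(normalized count + 1), which understates those of genes with few reads.

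Each 95% counting interval is a Clopper-Pearson interval for how a gene's reads divide between a pair of libraries, rescaled to a ratio. They cover counting error only. Amplified reads are not independent molecules, so the intervals can be too narrow even for that error. The scripts, in Python 3.11.15 with scipy 1.17.1, were tested on simulated data. No count test was run, with 1 library per group. Positions and exon lengths came from GENCODE 44 on GRCh37, the build of hg19, and promoters from RefSeq on GRCh38.p14. The members and lists were chosen with earlier results of these data known. Every member may be named. Of each partner list, the 2 largest rises and falls per comparison among genes with at least 100 reads in all were named, and CENPE, RACGAP1 and KLC2 in the inhibitor comparison were added after their values were seen.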

Additional observations from a re-analysis of the deposited data

How the results depend on the processing

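The class medians, the difference between mitotic and transport medians, and the counts of members beyond counting error were recomputed with other pseudocounts, upper-quartile, total-read and TMM factors (the last from the formula, not the package planned), centring on all genes, a mean normalized count of at least 50, and KIF2A counted as mitotic. Leaving out KIF15 and KIF1B, or KIF4B, was added after seeing the data. All 86 values stayed within 1.5 times the count, or within the members' median counting error of the median. That error was 0.13 for the transport median of 0.06 in sh-CTL + PLK1i, so even a change of sign could have passed. Other size factors and centring shift every log2 change of a comparison by nearly the same amount. The difference of medians was thus all but fixed in advance under them. The mitotic minus transport difference ran from 0.18 to 0.26 in sh-METTL3 and from 0.07 to 0.09 in sh-CTL + PLK1i. The lowest value in sh-METTL3 came without KIF15 and KIF1B. The transport median moved by over 1.5 times: in sh-METTL3 from -0.15 to -0.09 at a mean of at least 50 and to -0.10 without KIF15 and KIF1B, and in sh-CTL + PLK1i from 0.06 to 0.04 at that mean. These alternatives say nothing of variation between cultures, which 1 library per group cannot show. KIF4B, KIF17, KIF21B and KIF26B, with at most 80 reads, are the members most limited by depth. No paired analysis was possible because each group has 1 library.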
